A study of Sus scrofa with 90 samples.

Results

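Phosphofructokinase (PFKM), triosephosphate isomerase (TPI1), muscle enolase (ENO3) and UDP-glucose pyrophosphorylase (UGP2) were followed in pig muscle after an injection of propylene glycol. The members were all features of a cDNA array whose only gene symbol was PFKM, TPI1, ENO3 or UGP2 and that had a value in every column of the deposited table. There were 6 of them, among 1908 features with such values and 4608 listed features. They are called here by their numbers on the array's list: PFKM 5130 and PFKM 7526, TPI1 5918, ENO3 5217 and ENO3 5922, and UGP2 7638. A further 19 features under these symbols had no value in any column and are not analysed here. They were 8 of TPI1, 9 of ENO3, 1 of PFKM and 1 of UGP2.

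Glycolysis breaks glucose down to pyruvate and is the main source of fast energy in fast muscle fibres. PFKM is the muscle subunit of the enzyme that commits sugar to the pathway and sets much of its rate, TPI1 interconverts both triose phosphates made further down, and ENO3 is the enolase of adult muscle, close to the end of the pathway. UGP2 works on the storage branch, where it makes the UDP-glucose from which glycogen is built.

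Propylene glycol is a solvent in which drugs for injection are often dissolved. The study placed lesions of 4 ages in the back muscle (Longissimus dorsi) of each of 10 piglets, named C to L, and asked how expression in the muscle changed with lesion age. The samples were 10 non-injected control sites, 10 lesions of 6 h, 10 of 2 d, 9 of 7 d (pig J has none here) and 9 of 21 d (pig L has none here). The controls were other sites of the same animals, which also carried the lesions, and not muscle of untreated animals. Breed, sex and animal age are not given in the sources used here. Of 12 marker genes of skeletal muscle, 7 had values (CKM, MYH1, MYL1, MYLPF, PYGM, TNNC2 and TNNT3), and the others are not analysed here.

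Values are on a log scale of unstated base and are given after quantile normalization, in log units. A difference is lesion minus control, or later minus earlier lesion, and comes from 1 limma fit over all groups with the pig as a block. It is given with its standard error (SE), and a feature was called at a Benjamini-Hochberg adjusted p below 0.05 over the 1908 features. Each sample was hybridised to 1 array, and the number of arrays limits the precision. For pig F at 6 h, the array's values matched the feature list only after a shift of 384 features (r with the mean of all others 0.739 shifted, against 0.240 unshifted), while each of the others had an r of at least 0.718 unshifted. This array was left out, so that 9 lesions of 6 h and 47 arrays were fitted. The 6 h lesion of pig J had 2 columns, of which 1 held the values of another sample (the control of pig I), and the remaining column was used. The SD over features on a fitted array also differed between groups, before normalization, with a mean of 0.976 in control muscle and of 0.744, 0.805, 0.607 and 0.643 in lesions of 6 h, 2 d, 7 d and 21 d. Levels of different features cannot be set against each other, because each feature is a different probe.

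The UGP2 feature rose in lesions of 6 h, 7 d and 21 d, by 0.43, 0.68 and 0.49 log units (SE 0.133 each). The TPI1 feature fell by 0.40 at 7 d (SE 0.0852). ENO3 5922 fell at 6 h, 7 d and 21 d, with differences of -0.48, -0.46 and -0.38 (SE 0.0952 each). PFKM 7526 rose by 0.30 at 6 h and by 0.27 at 7 d (SE 0.0869 each). PFKM 5130 and ENO3 5217 were called against control at no lesion age taken alone. By age, both genes with 2 features thus had 1 feature that was called and 1 that was not. Over all lesion ages together, a moderated F test called PFKM 5130 (adjusted p = 0.0148) but not ENO3 5217 (0.508). At 2 d none of the 6 features was called by limma. An unadjusted p below 0.05 was found for 3 of them, and for 170 of all 1908 features.

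**Figure D1:**
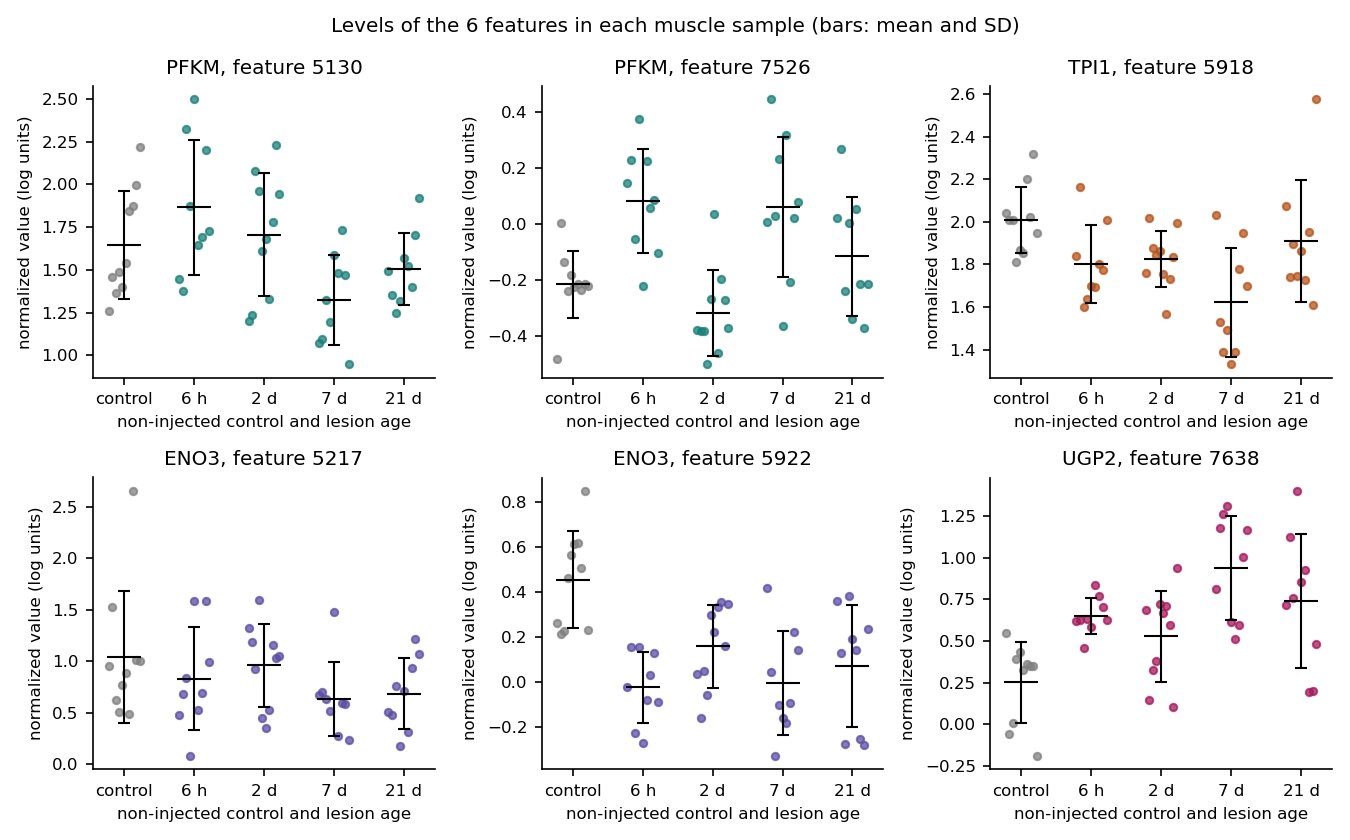
Normalized value (log units, a separate vertical scale in each panel) of each of the 6 features in every sample, by non-injected control and lesion age. Points are samples, and the black bars are the mean and SD of 9 or 10 samples. UGP2 sits highest at 7 d, with a mean of 0.94 against 0.25 in control muscle, and all lesions of 6 h lie below all controls for ENO3 5922.

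Set against all features of the array, these counts were of mixed size. At 6 h, 3 of the 6 features were called (2 higher, 1 lower), against 11.8% of all tested features. At 2 d, 0 of the 6 were called, against 0.734%. At 7 d, 4 of the 6 were called (2 higher, 2 lower), against 25.4%, and at 21 d 2 were called (1 higher, 1 lower), against 14.7%. Over the 4 lesion ages together, a moderated F test called 5 of the 6 features, against 22.6% of all. ENO3 5217 was the exception, with an adjusted p of 0.508. With 6 features, a share of them is a coarse measure.

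The 7 muscle marker genes were listed on 50 features. At 6 h 3 were higher and 4 lower (14%, against 11.8% of all features), and at 2 d limma called 0, against 0.734%. At 2 d 3 had an unadjusted p below 0.05, as had 170 of all 1908 features. At 7 d 3 were higher and 16 lower (38%, against 25.4%), and at 21 d 2 were higher and 8 lower (20%, against 14.7%). Their mean value on an array ran from 0.40 to 0.49 in control muscle, from 0.37 to 0.51 at 6 h, from 0.38 to 0.51 at 2 d, from 0.31 to 0.43 at 7 d and from 0.29 to 0.47 at 21 d. The part of these markers in the results was not tested. In pieces of whole muscle, fewer cells of a type and less RNA per cell cannot be told apart. No tested feature carried a symbol from the lists of macrophage, neutrophil, lymphocyte, fat or blood markers, so these cells were not followed here. FN1, a matrix protein gene, PECAM1 of the endothelium and DES of muscle were the single measured genes of their lists and were called at no age by limma. Of their 5 features, the FN1 feature at 21 d was the 1 case with an unadjusted p below 0.05, at a difference of -0.23.

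PFKM acts first of these enzymes in the pathway, and its 2 features did not move together. PFKM 7526 had normalized values from -0.48 to 0.00079 (median -0.22) in control muscle, from -0.22 to 0.37 (0.086) at 6 h, from -0.50 to 0.034 (-0.38) at 2 d, from -0.37 to 0.44 (0.027) at 7 d and from -0.37 to 0.27 (-0.21) at 21 d. The lesions of 6 h and 7 d were the high ones, those of 2 d the low ones, and all ages overlapped with control muscle. At 6 h, 6 of 9 lesions were above every control, and at 7 d 7 of 9.

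PFKM 7526 averaged 0.081 ± 0.186 at 6 h and 0.061 ± 0.250 at 7 d (SD, n = 9 each), against -0.216 ± 0.119 in control muscle (SD, n = 10). It rose by 0.30 at 6 h (SE 0.0869, adjusted p = 0.0187), in 9 of 9 pigs, with the smallest difference in pig H (0.0040) and the largest in pig C (0.63). The rise at 7 d was 0.27 (SE 0.0869, adjusted p = 0.0184), in 8 of 9 pigs, and pig G had the opposite sign (-0.18). It was not called at 2 d, with a difference of -0.10 (95% interval -0.27 to 0.067), or at 21 d, with 0.093 (-0.082 to 0.27). The up and down course was itself tested: the level fell by 0.40 at 2 d relative to 6 h (SE 0.0869, adjusted p = 0.00215), in 8 of 9 pigs, and it rose by 0.37 at 7 d relative to 2 d (SE 0.0869, adjusted p = 0.00198), in 8 of 9 pigs. Both steps between ages passed under all 21 alternative settings. The call at 6 h was lost when each array was divided by its SD (adjusted p = 0.153), when the local trend along the feature list was subtracted (0.129), and without pig C (0.0667), pig I or pig K. That at 7 d was lost in the first 2 of these settings (adjusted p = 0.220 and 0.295), with a difference of 0.16 after subtraction of the local trend, and without pig F (0.0519).

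PFKM 5130 took another course. Its values ran from 1.26 to 2.22 (median 1.51) in control muscle, from 1.38 to 2.50 (1.73) at 6 h, from 1.20 to 2.23 (1.73) at 2 d, from 0.95 to 1.73 (1.32) at 7 d and from 1.24 to 1.92 (1.496) at 21 d. The lesions of 7 d were the low ones, and every age overlapped with control muscle. Against control it differed by 0.21 (95% interval -0.035 to 0.46) at 6 h, by 0.061 (-0.18 to 0.30) at 2 d, by -0.31 (-0.56 to -0.066) at 7 d and by -0.13 (-0.38 to 0.11) at 21 d, and none of these passed, with an adjusted p of 0.0558 at 7 d. That difference was called under 8 of the 21 other settings, among them the table values as deposited (-1.12) and the fits without pig E, G, H or I. The 21 d difference was called on table values and after median centring, and was -0.98 at its lowest. On table values PFKM 5130 also turned sign at 6 h (-0.36) and 2 d (-0.34), and after median centring likewise (-0.35 and -0.32), with no call, and without pig E it did so at 2 d (-0.011).

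Between lesion ages PFKM 5130 fell at 7 d relative to both earlier ages. The difference from 6 h was -0.53 (SE 0.127, adjusted p = 0.0195), in 7 of 8 pigs, and only 5 of the 1908 features had a more negative one. The difference of 7 d from 2 d was -0.37 (SE 0.123, adjusted p = 0.0300), in 8 of 9 pigs. In the same step PFKM 7526 rose, so that the 2 features listed under this gene had differences of opposite sign that both passed the test. The fall of PFKM 5130 from 6 h was lost with the array of pig F kept (-0.38, adjusted p = 0.295), on table values (0.484), after centring on the median (0.361), with the compared groups alone (0.0549) and without pig E, H, K or L. The step from 2 d was lost under 9 of 21 settings, among them the fit without the block of pigs (-0.38, adjusted p = 0.0525), pigs as a random block (0.0627) and the fits without pig E, F, K or L.

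**Figure D2:**
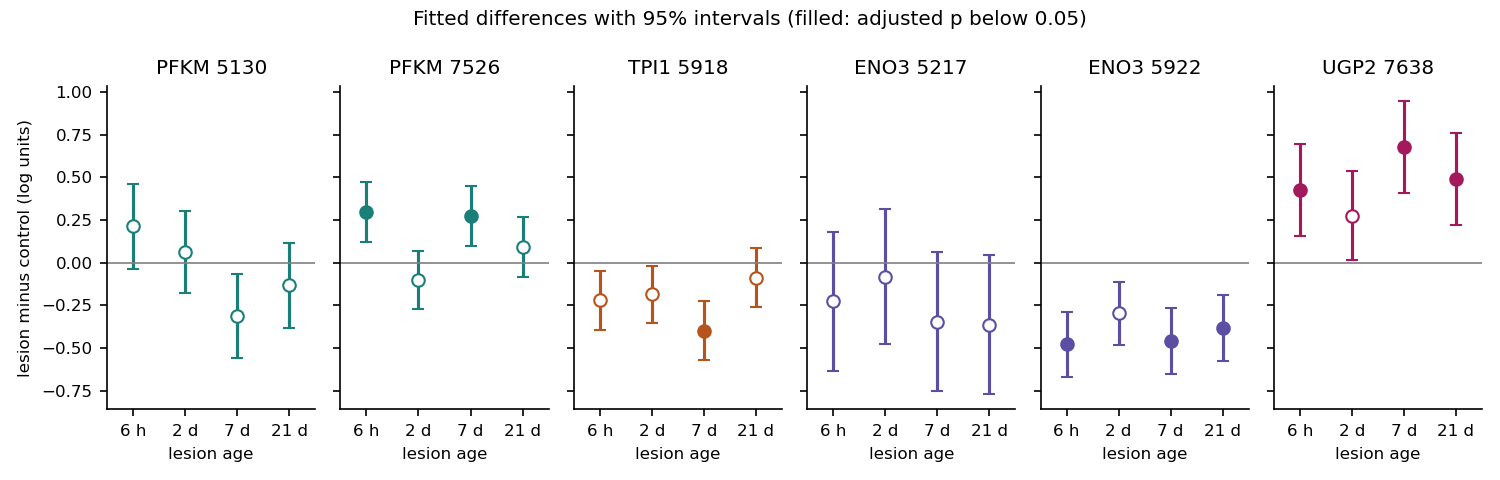
Fitted difference between lesion and control (log units) by lesion age for the 6 features, with 95% intervals. Filled points passed an adjusted p of 0.05 and open points did not: 9 of the 24 differences are filled, the highest being UGP2 at 7 d (0.68) and the lowest ENO3 5922 at 6 h (-0.48).

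TPI1 5918, in the middle of the pathway, had values from 1.81 to 2.32 (median 2.01) in control muscle, from 1.60 to 2.17 (1.77) at 6 h, from 1.57 to 2.02 (1.84) at 2 d, from 1.33 to 2.03 (1.53) at 7 d and from 1.61 to 2.58 (1.86) at 21 d. The lesions of 7 d were the low ones, 7 of 9 lying below every control, and pig K held the highest value at 21 d, above every control. TPI1 averaged 1.62 ± 0.256 at 7 d (SD, n = 9), against 2.01 ± 0.157 in control muscle (SD, n = 10), and fell by 0.40 (SE 0.0852, adjusted p = 0.000463), in 9 of 9 pigs. That is 1.32-fold if the scale is base 2 and 1.49-fold if it is the natural logarithm. The differences within pigs lay between -0.62 (pig E) and -0.0083 (pig C).

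The fall of TPI1 at 7 d passed under all 21 alternative settings, with differences from -1.27 on the table values as deposited to -0.32 with the array SD in the model, where the adjusted p was 0.0406. Against control TPI1 differed by -0.22 (95% interval -0.39 to -0.048, adjusted p = 0.0860) at 6 h, by -0.19 (-0.35 to -0.018, adjusted p = 0.457) at 2 d and by -0.088 (-0.26 to 0.084, adjusted p = 0.550) at 21 d. These did not pass, though the 6 h difference did with the array of pig F kept (-0.34, adjusted p = 0.0394), without pig D (0.0346), on table values (-0.88), after median centring (-0.87) and with array weights (-0.30). The 21 d value passed on table values (-1.02) and after median centring (-0.999), and the 2 d value with array weights (-0.23, adjusted p = 0.0459). Between 7 d and 21 d the TPI1 level was higher at 21 d by 0.31 (SE 0.0881), in 8 of 8 pigs, but this did not pass over all features (adjusted p = 0.102), in a comparison in which 0.681% of features were called.

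ENO3 5922, an enolase feature near the end of the pathway, did not overlap with control muscle at 6 h. Its values ran from 0.21 to 0.85 (median 0.49) in control muscle, from -0.27 to 0.16 (-0.023) at 6 h, from -0.16 to 0.36 (0.19) at 2 d, from -0.33 to 0.42 (-0.094) at 7 d and from -0.28 to 0.38 (0.14) at 21 d. All 9 lesions of 6 h lay below all 10 controls, and so did 5 of 10 at 2 d, 7 of 9 at 7 d and 6 of 9 at 21 d. At 6 h, 11.8% of all features were called by limma, which is another measure. How many of the 1908 features lay wholly apart from control is not given here.

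ENO3 5922 averaged -0.024 ± 0.158 at 6 h (SD, n = 9), against 0.456 ± 0.217 in control muscle (SD, n = 10). It fell by 0.48 at 6 h (SE 0.0952, adjusted p = 0.000485), in 9 of 9 pigs, from -0.89 in pig H to -0.061 in pig D. This was the 12th lowest difference of the 1908 features, 1.39-fold in base 2 or 1.62-fold on the natural scale, and it passed under all 21 alternative settings. At 7 d it fell by 0.46 (SE 0.0952, adjusted p = 0.000321), and at 21 d by 0.38 (SE 0.0952, adjusted p = 0.00491). Each difference was negative in 8 of 9 pigs, and pig C was the exception at both ages. With the SD of each array in the model, neither passed (-0.26 with an adjusted p of 0.108 at 7 d, and -0.19 with 0.372 at 21 d), and the 21 d call was also lost after subtraction of the local trend (-0.34, adjusted p = 0.0664). At 2 d the difference of -0.30 (95% interval -0.48 to -0.11) had the same sign in 9 of 10 pigs and did not pass (adjusted p = 0.159), but did on table values, after median centring and with array weights (adjusted p = 0.0184, 0.0178 and 0.0145).

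ENO3 5217, the other enolase feature, had values from 0.48 to 2.65 (median 0.92) in control muscle, from 0.081 to 1.59 (0.69) at 6 h, from 0.35 to 1.59 (1.04) at 2 d, from 0.24 to 1.47 (0.60) at 7 d and from 0.18 to 1.21 (0.71) at 21 d. All ages overlapped with control muscle over most of the range, and the control of pig J stood far above the rest. Its differences of -0.23, -0.083, -0.35 and -0.36 at 6 h, 2 d, 7 d and 21 d passed at no age by limma, and none had an unadjusted p below 0.05. The sign at 2 d turned without pig J (0.074, not called). The 95% interval at 7 d, from -0.75 to 0.061, holds the fall measured for ENO3 5922, so a fall of that size is not excluded for this feature. The 7 d and 21 d differences did pass on table values (-0.80 and -0.89) and after median centring (-0.78 and -0.87), and the one at 7 d with array weights (-0.58, adjusted p = 0.0250).

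UGP2 7638, on the glycogen branch, had values from -0.19 to 0.55 (median 0.35) in control muscle, from 0.45 to 0.84 (0.63) at 6 h, from 0.11 to 0.94 (0.63) at 2 d, from 0.51 to 1.31 (1.002) at 7 d and from 0.20 to 1.40 (0.76) at 21 d. The lesions of 7 d were the high ones, and every age overlapped with control muscle. Above every control were 8 of 9 lesions at 6 h, 6 of 10 at 2 d, 8 of 9 at 7 d and 6 of 9 at 21 d. The lesions of 6 h were close together (SD 0.111), whereas those of 21 d were spread (SD 0.401).

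UGP2 averaged 0.939 ± 0.311 at 7 d (SD, n = 9), against 0.252 ± 0.243 in control muscle (SD, n = 10). The rise at 7 d was 0.68 (SE 0.133, adjusted p = 0.000174), in 9 of 9 pigs, which is 1.60-fold in base 2 and 1.97-fold on the natural scale. It had the 58th highest difference of the 1908 features. The size differed between pigs. The difference was between 0.18 and 0.27 in pigs C, G, H and I, 0.65 in pig K and between 0.92 and 1.36 in pigs D, E, F and L. This rise passed under all 21 alternative settings, with an adjusted p of at most 0.0399 and a smallest difference of 0.40, both on table values.

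At 6 h UGP2 was higher by 0.43 (SE 0.133, adjusted p = 0.0299), in 9 of 9 pigs, and at 21 d by 0.49 (SE 0.133, adjusted p = 0.0101), in 7 of 9 pigs, with the opposite sign in pigs I and J. Both depended on settings. The 6 h call was lost with the array of pig F kept (0.28, adjusted p = 0.249), without the 6 h sample of pig J and the control sample of pig I (0.43, adjusted p = 0.0601), on table values (0.35, 0.0988), after median centring (0.0760), after subtraction of the local trend (0.118), and without pig E, K or L (0.0586, 0.0562 and 0.0649). The 21 d call was lost on table values (0.31, adjusted p = 0.114), after median centring (0.0737), after subtraction of the local trend (0.0553) and with the compared groups alone (0.0646). At 2 d the difference of 0.28 (95% interval 0.015 to 0.54) was positive in 8 of 10 pigs and did not pass (adjusted p = 0.497).

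**Figure D3:**
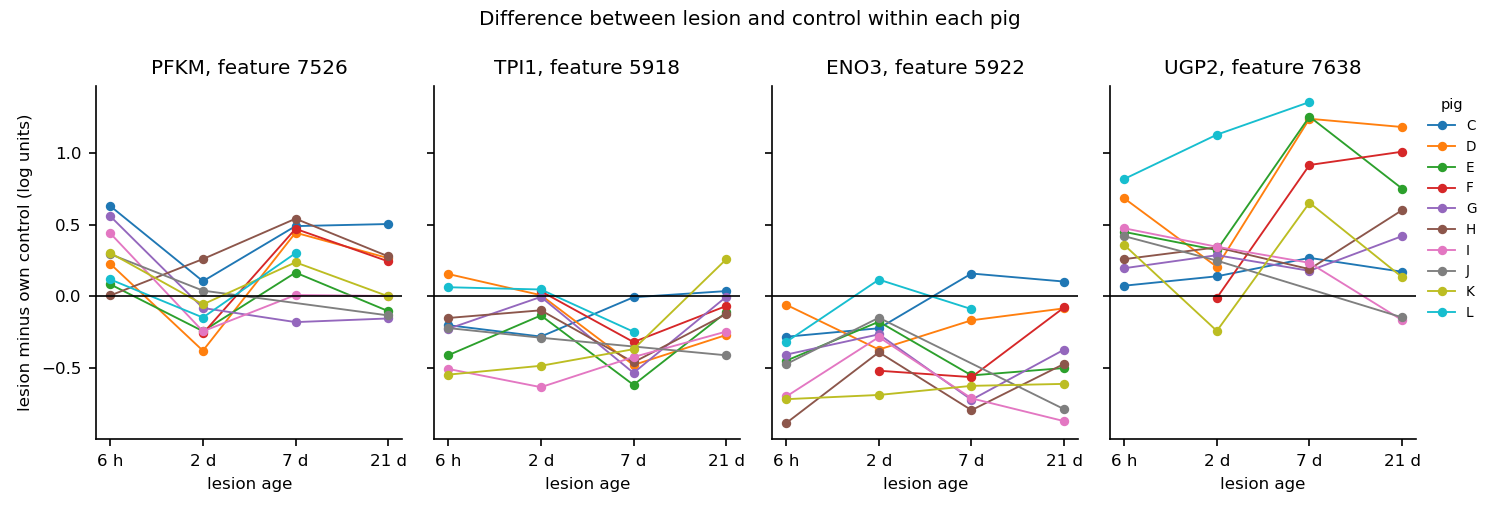
Difference between each lesion and the control of the same pig (normalized, log units) by lesion age, 1 line per pig, for PFKM 7526, TPI1, ENO3 5922 and UGP2. A line passes over an age with no value (6 h in pig F, 7 d in pig J). For UGP2 at 7 d all 9 pigs are above 0 and range from 0.18 to 1.36, and for TPI1 at 7 d all 9 are below 0.

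Between lesion ages, 5 of 36 differences were called, and the background differed between the steps. At 2 d against 6 h, 1 of the 6 features was called (PFKM 7526, lower at 2 d), against 6.18% of all. At 7 d against 2 d, 3 were called, against 16.5%: PFKM 7526 and UGP2 were higher at 7 d and PFKM 5130 was lower. The level of UGP2 at 7 d was 0.40 above that at 2 d (SE 0.133, adjusted p = 0.0314), in 6 of 9 pigs, with the opposite sign in pigs G, H and I, and 10 of 21 settings lost this call. They included the fits without pig D, E, F or K, and the adjusted p reached 0.447 on table values.

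At 7 d against 6 h, 1 of the 6 was called (PFKM 5130, lower at 7 d), against 1.62% of all. At 21 d against 6 h limma called 0, against 1.62% of all. An unadjusted p below 0.05 was found there for 2, and for 182 of all 1908 features. At 21 d against 2 d it also called 0, against 6.92%, and at 21 d against 7 d 0, against 0.681%. In each of these 2 comparisons 1 had an unadjusted p below 0.05, as had 360 and 163 of all 1908 features. By its mean, UGP2 stood in the order 7 d, 21 d, 6 h, 2 d, control from high to low, TPI1 in the order control, 21 d, 2 d, 6 h, 7 d, and ENO3 5922 in the order control, 2 d, 21 d, 7 d, 6 h. PFKM 7526 stood in the order 6 h, 7 d, 21 d, control, 2 d and PFKM 5130 in the order 6 h, 2 d, control, 21 d, 7 d. No neighbours in any of these orders differed at the threshold. On table values the orders of PFKM 7526 and ENO3 5922 were as given, but control came first for PFKM 5130 (followed by 2 d, 6 h, 21 d and 7 d), 21 d moved behind 6 h for TPI1, and 6 h and 21 d changed places for UGP2.

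Over the arrays, too, the 2 features of a gene had little in common. Over 47 arrays, the values of PFKM 5130 and PFKM 7526 had a Pearson r of -0.241 (Spearman rho -0.222), and over the 10 controls alone r was 0.0877. ENO3 5217 and ENO3 5922 had an r of -0.0382 (rho -0.121) over 47 arrays and of -0.0611 over the controls. These arrays share pigs and ages, so the coefficients are descriptions without a test. Each feature is a separate cDNA clone named by the platform's annotation, and the values do not settle whether every symbol belongs to its feature. The names PFKM, TPI1, ENO3 and UGP2 stand here for the features so listed. The TPI1 and ENO3 5922 features, with r = 0.513, lie 4 places apart on the feature list, and all other pairs of the 6 are at least 87 apart.

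**Figure D4:**
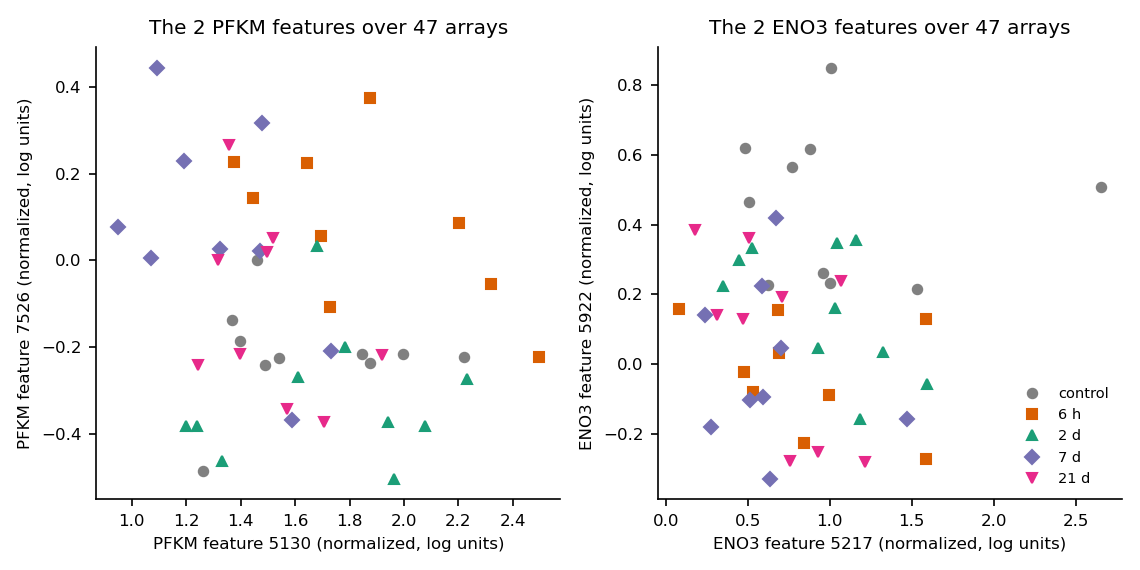
Normalized values (log units) of the 2 PFKM features (left) and of the 2 ENO3 features (right) plotted against each other over 47 arrays, with symbols for control and lesion age. Neither pair lies along a line: r is -0.241 for PFKM and -0.0382 for ENO3.

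The genes whose pattern over the 47 arrays was most like that of each feature were taken by Pearson r, as a description, with 1 feature per gene and among the 206 features with 1 gene symbol. Other features were more alike in 5 of the 6 cases, the highest r over all features being 0.584 for PFKM 5130, 0.826 for PFKM 7526, 0.718 for TPI1, 0.783 for ENO3 5217, 0.884 for ENO3 5922 and 0.837 for UGP2. For ENO3 5922 they were RPL11, a ribosomal protein gene (r = 0.88, here the highest of all features), the Z disc gene MYOZ1 (0.72) and the fast myosin light chain gene MYLPF (0.72). For UGP2 they were another MYLPF feature, number 7944 (0.77), the kinase gene JAK1 (0.67) and XIRP2, which encodes an actin-binding muscle protein (0.60). Of the features with a symbol, TPI1 was most like COX7A1, a muscle subunit of cytochrome oxidase (0.65), TPT1 (0.61) and OXTR (0.56).

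PFKM 7526 was, by the same rule, most like PYGM, the glycogen phosphorylase of muscle (0.62), CKM, the muscle creatine kinase (0.60), and HSPE1 (0.57), while 3.41% of all features had a higher r with it than PYGM. PFKM 5130 was most like ID2 (0.54), POMC (0.53) and CFL1 (0.46), and ENO3 5217 like ID2 (0.57), FBP1 (0.52) and yet another MYLPF feature (0.51). The 2 PFKM features shared none of these genes, the 2 ENO3 features each had a MYLPF feature among them, and ID2 was named for both PFKM 5130 and ENO3 5217. The ID2 feature lies 9 places from PFKM 5130 on the feature list and the XIRP2 feature 9 places from UGP2, the MYLPF feature named for ENO3 5922 lies 20 places from it, and the other 15 are at least 96 places away.

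Of 48 genes listed for glycolysis and glycogen, 10 had values, on 18 features. The 6 genes beside PFKM, TPI1, ENO3 and UGP2 were GAPDH (5 features), PYGM (3), and GPI, PGK1, PRKAG3 and SLC2A4 (1 each). Of these 12 features limma called 0 at each of the 4 ages. Of all features, 11.8%, 0.734%, 25.4% and 14.7% were called at 6 h, 2 d, 7 d and 21 d. In that order, 1, 1, 0 and 0 of the 12 had an unadjusted p below 0.05, as had 515, 170, 665 and 514 of all 1908 features. Their differences at 7 d lay between -0.28 and 0.16. GPI, the isomerase just before phosphofructokinase, differed by 0.038 (SE 0.110) at 7 d, and PGK1, the kinase that lies between the steps of TPI1 and ENO3, by -0.23 (SE 0.188). SLC2A4, the insulin-regulated glucose transporter, is the neighbour of UGP2 on the feature list and differed by 0.046 (SE 0.0749) at 7 d, against 0.68 for UGP2.

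The widest of these differences was that of GAPDH feature 4613 at 6 h, at -0.53 (SE 0.215, adjusted p = 0.104), while the other 4 GAPDH features lay between -0.076 and 0.14 there. The median difference over all 18 features was 0.0074 for 6 h, -0.016 for 2 d, -0.070 for 7 d and -0.013 for 21 d, beside -0.016, -0.021, -0.0089 and -0.00092 over all tested features.

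Over this list and those of phosphocreatine, oxidative and fibre genes, 29 genes had values on 86 features. Called at some age against control were 11 genes, with PFKM, TPI1, ENO3 and UGP2 among them. Of all tested features, 25.4% were called at 7 d and 22.6% by the F test over the 4 ages. These shares count features and not genes called at some age, for which the share over all genes is not given here. A gene with many features had more chances of a call. Of the 10 features of CKM, which regenerates ATP from phosphocreatine, 5 were lower and 1 higher at 7 d, and the strongest (5072) fell by 0.37 (SE 0.0765, adjusted p = 0.000321). Of 7 features of 5 oxidative genes, 1 fell at 7 d, that of COX7A1, which fell by 0.36 (SE 0.104, adjusted p = 0.00799). MYLPF had 7 of 18 features called at some age, 2 higher and 5 lower, with feature 7944 higher at 7 d by 1.15 (SE 0.157, adjusted p = 5.12e-07). TNNC2, fast troponin C, had 5 of 12 features lower, and the strongest differed by -0.49 at 7 d (SE 0.0860, adjusted p = 3.97e-05). MYH7, the slow myosin heavy chain, had 1 of 4 features higher and 1 lower, with the higher one at 0.47 at 7 d (SE 0.0920, adjusted p = 0.000163). Features under 1 symbol that were called in opposite directions against control were therefore found for MYLPF, CKM and MYH7. The opposite calls of the 2 PFKM features were at 7 d against 2 d and not against control.

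**Figure D5:**
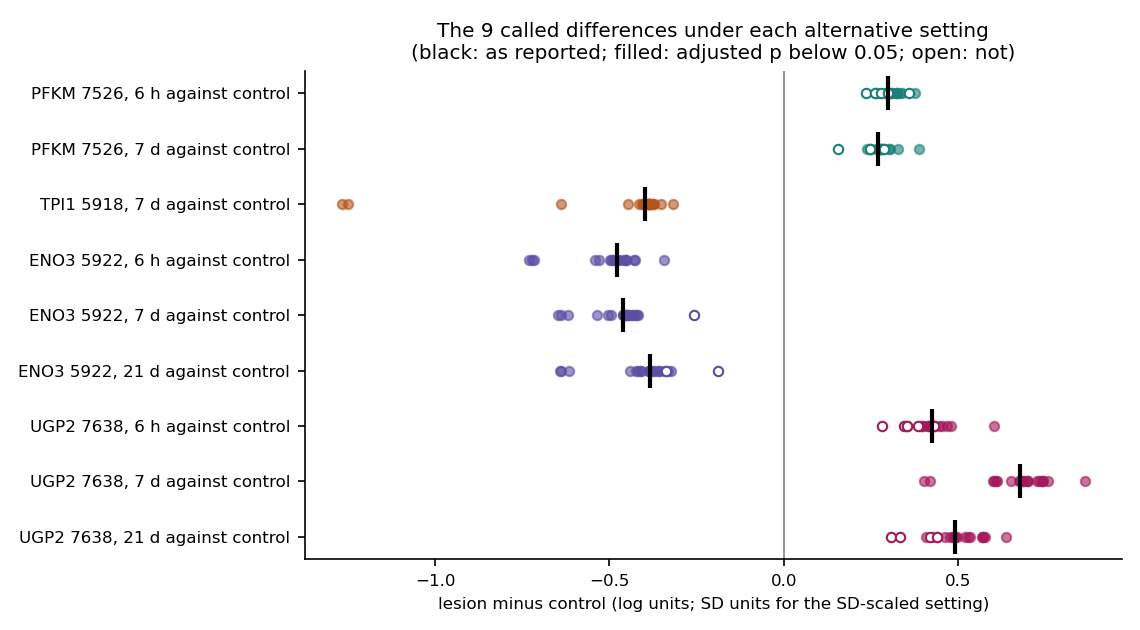
The 9 called differences between lesion and control (log units, SD units for the SD-scaled setting) as reported (black marks) and under the 21 alternative settings, filled where the adjusted p was below 0.05 and open where it was not. All points keep the sign of the reported value. UGP2 at 7 d, TPI1 at 7 d and ENO3 5922 at 6 h are filled under every setting.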

How the data were processed

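The authors' deposited table holds 90 columns for 48 samples, as values on a log scale of hybridisation signal whose base, scaling and choice of features with values are not given in the sources used here. Per the labels' design text, 33P-labelled cDNA of each sample was hybridised to 1 array with duplicated parts and imaged on a phosphor plate. Symbols come from the platform annotation. All 4 symbols are in the current RefSeq gene table (Sscrofa11.1), TPI1 under another identifier. No sequence is printed.

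Duplicate columns were identical in 41 of 42 samples that had both and were averaged, and 1 copied column was left out. The 47 arrays were quantile-normalized and fitted with limma 3.58.1 in R 4.3.3 (lmFit, eBayes, group and pig as fixed terms, two-sided p, Benjamini-Hochberg over 1908 features within each comparison). The pairing rests on the design, since the samples labelled with the same pig letter come from 1 pig. Deviations from group means correlated at a median of -0.0236 within pigs (88 pairs) and -0.0249 between pigs (993 pairs). The fit was also run on simulated data with independent noise and no difference in array SD between groups. That run checks the code and not the calls reported here. Tables and figures used numpy 2.4.6, pandas 2.3.3 and matplotlib 3.10.9.

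Named are all member features, for each the 3 genes with the highest r, and genes of the lists called against control, with values for at most 10 of them. GAPDH 4613, GPI, PGK1, SLC2A4 and FN1 fall outside this rule and were chosen after their values were seen. The members, lists and alternatives were chosen with earlier results of these data known. The alternatives changed array scaling, weights, the local trend along the list, the pig block, the arrays kept and the groups fitted.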

Additional observations from a re-analysis of the deposited data

Results flagged for a closer look

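In 4 of 30 groups of values (6 features in 5 groups) 1 sample lay far from the others by Dixon's criterion, where chance gives about 5% of groups. They were the control of pig C for PFKM 7526 (-0.48, next -0.24), the 21 d lesion of pig K for TPI1 (2.58, next 2.08), and for ENO3 5217 the 7 d lesion of pig G (1.47, next 0.70) and the control of pig J (2.65, next 1.53). For PFKM 7526, the call at 6 h was lost without pig C (adjusted p = 0.0667).

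Differences from control differed between lesion ages in 5 cases, tested as the difference between ages itself. The level of PFKM 5130 at 7 d differed by -0.53 from 6 h and by -0.37 from 2 d. That of PFKM 7526 at 2 d differed by -0.40 from 6 h, and at 7 d by 0.37 from 2 d. For UGP2 the 7 d level was 0.40 above that of 2 d. No cause of these patterns was tested.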

How the results depend on the processing

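Of the 9 called differences from control, 3 passed under all 21 alternatives (UGP2 at 7 d, TPI1 at 7 d, ENO3 5922 at 6 h), and of the 5 called between ages 2 did, both of PFKM 7526. All 9 kept their sign. The number of the 6 features called moved as follows. At 6 h against control it was 3, and 1 after subtraction of the local trend. At 2 d it was 0, and 1 on table values, 1 after median centring and 2 with array weights. At 7 d it was 4, and 6 on table values, after median centring and with array weights. It was 3 there with the array SD in the model and after subtraction of the local trend. At 21 d it was 2 (281), and 4 on table values (708) and after median centring (742). It was 1 there with the array SD in the model (111) and with the compared groups alone (178), and 0 after subtraction of the local trend (175). For 2 d against 6 h it was 1 (118), and 2 with array weights (315). For 7 d against 6 h it was 1 (31). It was 0 there with the array of pig F kept (32), on table values (0), after median centring (1) and with the compared groups alone (25). For 7 d against 2 d it was 3 (314). It was 1 there with the array of pig F kept (235), after subtraction of the local trend (274) and with the compared groups alone (209). It was 2 on table values (127), after median centring (177), after division by the array SD (242), without the pig block (316) and with pigs as a random block (305). Over the 4 ages it was 5 (432), and 3 with the array SD in the model (258). It was 4 with the array of pig F kept (342) and after division by the array SD (374). Leaving out each pig in turn gave 1 to 4 features at 6 h (151 to 257), 3 to 5 at 7 d (370 to 490) and 4 to 5 over the 4 ages (340 to 430). It gave 0 to 1 for 7 d against 6 h (10 to 40) and 1 to 4 for 7 d against 2 d (217 to 316). Genes called from all lists were 11, and 22 on table values, and the like counts over all genes are not given here. Among the 24 differences from control there were 7 changes of sign, none of them called. For PFKM 5130 they were at 6 h (0.21 as reported, -0.36 on table values and -0.35 after median centring), at 2 d (0.061 as reported, -0.34 and -0.32 in these settings, and -0.011 to 0.12 when pigs were left out in turn, negative without pig E) and at 21 d (-0.13 as reported, 3.42e-05 after subtraction of the local trend). For ENO3 5217 the 2 d difference, -0.083 as reported, ran from -0.21 to 0.074 with pigs left out, positive without pig J. Without the replicate block of pigs, the PFKM 5130 step from 2 d to 7 d did not pass (-0.38, adjusted p = 0.0525), and no other call against control or between ages among these features was lost. The cause of these shifts was not tested. Over all features, scaling also moved the split of calls: at 7 d 205 were higher and 279 lower as reported, 249 and 495 on table values, and 179 and 86 with the array SD in the model. At 6 h these were 132 and 93, 103 and 393, and 137 and 25, and at 21 d 124 and 157, 178 and 530, and 93 and 18.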
